A study of Mus musculus with 2 samples.

Results

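Neutrophils fill their granules in a fixed order as they mature in the bone marrow. Promyelocytes make the azurophil (early) granule proteins, whereas myelocytes and metamyelocytes make the specific (late) granule proteins. Calprotectin and the subunits of the oxidase accumulate as the cells mature. Transcripts of these genes can therefore mark cells of the neutrophil lineage in a marrow-bearing section, but not precursors alone. The 10 genes described here were chosen by name among the 19465 genes of the assay, with earlier results of these data known. They comprise 2 early granule genes, 5 late granule genes, 2 calprotectin genes and 1 oxidase gene. All 10 were present once in both sections.

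Expression was measured with Visium for FFPE tissue, in which gene-specific probe pairs bind transcripts of a tissue section and are counted as unique molecular identifiers (UMIs) on a grid of spots, each a small region that can hold several cells. Both sections were of femurs of female bone cell reporter (BCR) mice, which carry fluorescent reporters at *Ibsp* and *Acp5* in all groups. A femoral osteotomy held by an external fixator was made at 12 weeks of age, and the femurs were explanted at 17 weeks, which is 5 weeks after surgery. The Control mouse was sham-loaded and the Loaded mouse underwent cyclic mechanical loading of the bridged fracture site. There was 1 section of 1 mouse per condition, so no test between conditions was possible, and every interval given is a 95% interval of counting error only. Differences between these mice, the planes of their sections and the loading cannot be told apart.

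The Control section held 9002147 UMIs in 1962 spots and the Loaded section 4910716 UMIs in 1436 spots, of which 1898 and 1431 were used. The study's list of bone-region barcodes gave 131 Control and 146 Loaded bone spots. All remaining spots were called other spots (1767 and 1285). Among these, 156 spots in each section lay between bone spots on either side of the shaft and are referred to as enclosed spots. The skeletal muscle list took 15.99% of UMIs in Control bone spots and 8.35% in Loaded bone spots, and 29.6% and 18.5% in other spots. The sections shared 557 spot barcodes, which are positions on the slide grid and not shared cells. The neutrophil marker *Ly6g* was detected in the bone spots of both sections at low counts (8 UMIs in Control and 22 in Loaded). The G-CSF receptor gene *Csf3r*, of the mature neutrophil list, had 17 and 59 UMIs.

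The upstream sequences of 4 members are shown because the pairwise comparisons of early and late granule genes turn on them: *Elane* of the early genes, and *Ngp*, *Ltf* and *Camp* of the late genes, the last 3 all on chromosome 9. They are from RefSeq (GRCm38.p6) and run 5′ to 3′ on the strand of the gene up to the base before its first annotated base. *Elane* is shown at chr10:79886062-79886246 (plus strand), *Ngp* at chr9:110419558-110419746 (plus), *Ltf* at chr9:111019042-111019270 (plus) and *Camp* at chr9:109849618-109849706 (minus). Capitals mark matches to a C/EBP-type motif (TTNNGNAA on either strand) or to a PU.1-type motif (GAGGAA on either strand).
Elane: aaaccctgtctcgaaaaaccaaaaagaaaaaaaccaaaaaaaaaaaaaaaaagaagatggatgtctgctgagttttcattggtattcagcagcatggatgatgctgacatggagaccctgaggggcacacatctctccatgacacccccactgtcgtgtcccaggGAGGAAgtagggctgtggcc
Ngp: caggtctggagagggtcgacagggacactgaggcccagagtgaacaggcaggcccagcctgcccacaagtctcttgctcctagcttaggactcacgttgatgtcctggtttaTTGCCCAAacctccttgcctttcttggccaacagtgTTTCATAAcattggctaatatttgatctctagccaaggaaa
Ltf: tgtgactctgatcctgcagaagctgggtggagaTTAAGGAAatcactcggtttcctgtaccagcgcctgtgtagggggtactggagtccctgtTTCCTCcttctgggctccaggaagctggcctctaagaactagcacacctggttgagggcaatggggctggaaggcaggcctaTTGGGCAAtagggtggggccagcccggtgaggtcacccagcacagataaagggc
Camp: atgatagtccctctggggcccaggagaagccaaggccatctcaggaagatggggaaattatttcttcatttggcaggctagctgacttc
Over the 250 bases before the RefSeq start, the C/EBP-type motif occurred at 6 of the 10 members and in 36.8% of the 32851 windows of the same length in the RefSeq table, and the PU.1-type motif at 6 members and in 23.3% of windows. *Ngp* had 3 C/EBP-type matches and *Ltf* had 2, whereas *Camp* had no match to either motif in this window. *Elane* had 1 PU.1-type match and no C/EBP-type match. No matches of the motifs overlapped at any member. The matches are descriptions of these letters and not binding sites.

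Relative to all UMIs, the members were most abundant inside the shaft, although most of their UMIs (5619 of 7947 in Control and 9035 of 16029 in Loaded) lay in the more numerous spots that were neither bone nor enclosed. They took 0.0866% (0.0846 to 0.0886) of all UMIs in Control other spots and 0.116% (0.108 to 0.126) in Control bone spots. The share was 0.314% (0.309 to 0.320) in Loaded other spots, 0.460% (0.440 to 0.481) in Loaded bone spots, 0.536% (0.510 to 0.562) in Control enclosed spots and 1.19% (1.15 to 1.22) in Loaded enclosed spots. No neighboring intervals in this order overlapped, but the order is one of shares of total UMIs. With the size factors described below, the summed members had a log2 ratio of bone over other spots of -0.06 (-0.18 to 0.06) in Control. In Loaded it was 0.33 (0.26 to 0.40). In the map of member counts, the enclosed shaft and the marrow beyond it stood out against the flanking muscle in both sections.

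**Figure D1:**
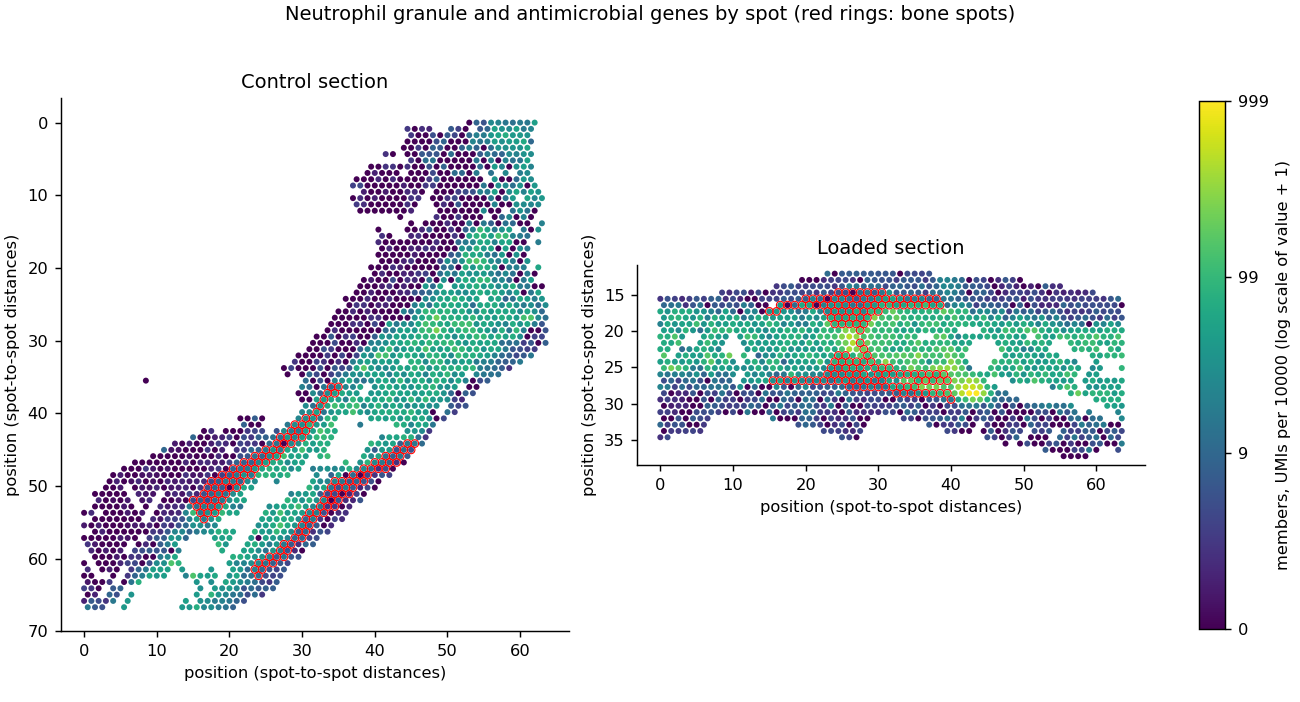
UMIs of the 10 members per 10000 UMIs of each spot (color, logarithmic scale of the value plus 1) at the position of the spot in the Control and Loaded sections, in units of the distance between neighboring spots, with bone spots ringed in red. The highest values, of up to 1059 per 10000, lie in a group of spots just outside the bone region of the Loaded section.

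The bone-spot comparison addressed how the healing bone of the Loaded mouse differed from that of the Control mouse. All 10 members had higher normalised counts in Loaded bone spots, with a median log2 ratio of 1.77 and a range of 0.88 (*Elane*) to 2.68 (*Ngp*), whereas the median of all 10003 genes with at least 10 UMIs was 0.01. A normalised count is the UMIs of a region divided by the sum of the size factors of its spots. Of the members, 9 of 10 were at least 2-fold higher and 0 were at least 2-fold lower, compared with 10.1% and 10.5% of all genes. The study had already reported *S100a8* and *Ncf1* as higher in Loaded bone. Because the members were chosen with earlier results known, the shares of all genes are a reference and not a test. The summed counts of the members had a log2 ratio of 1.85 (1.72 to 1.98). In a section, fewer cells of a type and less RNA per cell cannot be told apart.

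Of the early granule genes, *Elane*, which encodes neutrophil elastase, had 37 UMIs in Control bone spots and 55 in Loaded bone spots, or normalised counts of 0.225 and 0.415 (log2 ratio +0.88, 0.26 to 1.53). It was the only member below the 2-fold mark in bone spots, but the mark ran close to *Elane* and *Ltf*. With library totals all 10 members passed it (*Elane* +1.02), and with TMM factors or equal weight for every spot 8 did (*Ltf* +0.98 and +0.92). *Mpo*, which encodes myeloperoxidase, had 5 and 14 UMIs (+1.80, 0.24 to 3.62), and its interval spanned the ratios of all other members.

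Of the late granule genes, *Ltf* was separated from *Camp* and *Ngp*, whereas the intervals of all other pairs overlapped. *Camp*, the cathelicidin precursor and the member with most UMIs, had 210 UMIs in Control and 692 in Loaded bone spots, or normalised counts of 1.28 and 5.22 (+2.03, 1.81 to 2.26). *Ngp*, neutrophilic granule protein, had 26 and 134 UMIs (+2.68, 2.06 to 3.34), the highest ratio of the members. *Ltf*, the iron-binding lactotransferrin, had 80 and 131 UMIs (+1.02, 0.61 to 1.44), and its interval lay wholly below that of *Camp*. *Lcn2*, the siderophore-binding lipocalin, had 11 and 28 UMIs (+1.66, 0.61 to 2.81). *Cd177*, a surface glycoprotein of neutrophils that is also stored in specific granules, had 33 and 89 UMIs (+1.74, 1.15 to 2.37).

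*S100a8* and *S100a9* encode the subunits of the metal-binding protein calprotectin. *S100a8* had 65 UMIs in Control and 275 in Loaded bone spots (+2.39, 1.997 to 2.81), and *S100a9* had 53 and 153 (+1.84, 1.38 to 2.32). *Ncf1*, the p47phox subunit of the NADPH oxidase, had 128 and 311 UMIs (+1.59, 1.29 to 1.90). Monocytes also express these 3 genes. The monocyte and macrophage list had a median log2 ratio of 0.06 in the same comparison. Of 8 genes tested, 1 was at least 2-fold higher (*Ccr2*) and 1 at least 2-fold lower (*Cd14*), compared with 10.1% and 10.5% of all genes. The level of the list was 9.74 per 10000 UMIs in Control and 11.03 in Loaded bone spots. The list joins macrophage with monocyte genes, and the cell source of the 3 genes was not tested.

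**Figure D2:**
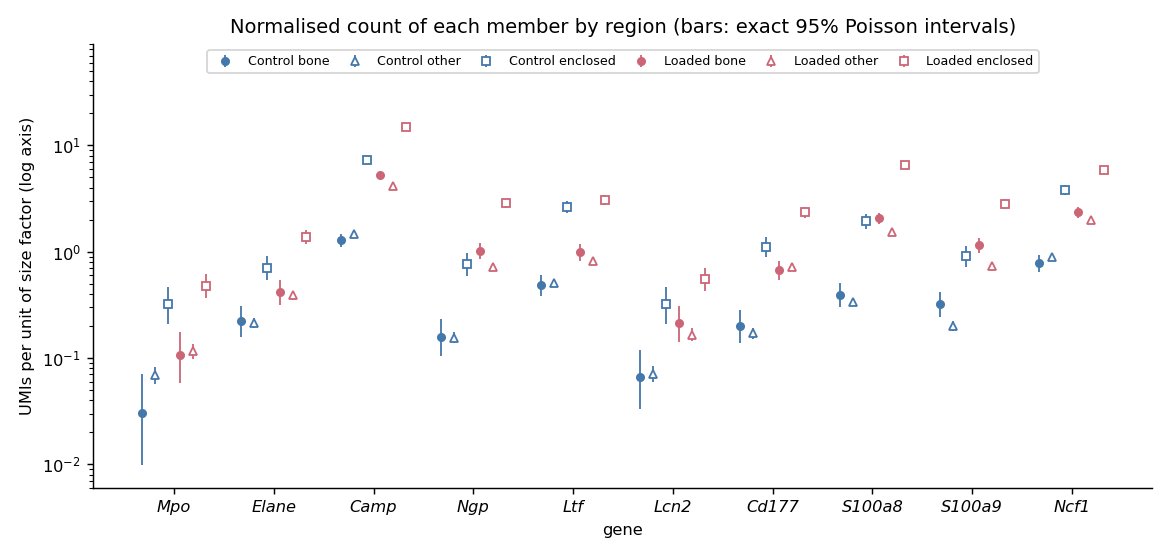
Normalised count of each member (UMIs per unit of size factor, logarithmic axis) in bone, other and enclosed spots of the Control (blue) and Loaded (red) sections, with exact 95% Poisson intervals as bars. For *Camp* the values run from 1.28 in Control bone spots to 14.8 in Loaded enclosed spots.

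The level of the members also varied within each bone region, between blocks and along the shaft. When each bone region was divided into 4 blocks of neighboring spots, the members took 6.79 to 21.7 per 10000 UMIs in the Control blocks and 28.2 to 81.6 in the Loaded blocks, and the blocks did not overlap. Positions along the shaft were counted from the mean position of each section's bone spots, in a direction set by the slide. Stretches with the same label were therefore not matched between sections for anatomical site or fracture gap. From -12 to -7.5 spots along the shaft from the centre, the members took 10.9 (9.11 to 12.9) in Control and 15.6 (10.2 to 22.8) in Loaded bone spots, with overlapping intervals. In the following stretches up to 12 spots, the values were 14.3, 14.9, 12.1 and 10.4 in Control. Those in Loaded were 28.1, 55.4, 39.5 and 80.1. Per spot, the Control bone spots had a median of 12.9 per 10000 UMIs and a maximum of 77.0, and the Loaded bone spots had a median of 39.2 and a maximum of 201. No member UMI was found in 5 of 131 Control and 4 of 146 Loaded bone spots. The tenth of bone spots with most member UMIs held 22.5% of them in Control and 31.9% in Loaded.

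Detection was compared after thinning every spot at random to 1000 UMIs, which left out 15 Loaded bone spots. The intervals of these shares do not cover the spread between random draws. *Camp* was then found in 36.6% (28.4 to 45.5) of Control and 71.8% (63.2 to 79.3) of Loaded bone spots, and before thinning in 73.3% and 89.0%. In spots with a muscle share of at least 20%, a tissue that should lack these genes, the thinned shares were 5.61% and 12.8%. *Ngp* was found in 5.34% (2.18 to 10.7) of Control and 31.3% (23.5 to 39.98) of Loaded bone spots, against 1.21% and 3.32% in those muscle spots. *Ltf* followed with 12.2% (7.15 to 19.1) and 34.4% (26.3 to 43.2), against 3.03% and 2.81%. The difference in *Ltf* was not stable between the draws at 2 depths. With thinning to 500 UMIs, *Ltf* was found in 14.5% (8.96 to 21.7) of Control and 15.1% (9.69 to 21.9) of Loaded bone spots, and before thinning in 44.3% and 51.4%. At 500 UMIs the shares were 19.8% and 57.5% for *Camp* and 4.58% and 15.1% for *Ngp*. For *Mpo* at 1000 UMIs, 0.763% of Control bone spots (1 spot, 0.0193 to 4.18) could not be separated from the 0.303% (0.0368 to 1.09) of Control muscle spots. At 500 UMIs these shares were 3.05% (0.838 to 7.63) and 0% (0 to 0.537), and the share of Loaded bone spots was 0% (0 to 2.49). The *Mpo* shares thus varied between draws. In Control bone spots the shares of *Ltf* and *Mpo* were higher at the lower depth, which depth alone cannot produce. The median depth of the spots before thinning was 3478 UMIs in Control bone, 2621 in Loaded bone and, for spots with a muscle share of at least 10%, 4768 and 3416.

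Other genes of the neutrophil program were examined as lists. All 6 mature neutrophil genes tested were at least 2-fold higher in Loaded bone spots (median +1.83), among them the G-CSF receptor *Csf3r* (+2.11, 1.31 to 2.98). Of 3 further azurophil genes tested, 1 was at least 2-fold higher (median of the list +0.99). This was *Ctsg* (6 UMIs in Control and 13 in Loaded, +1.43, -0.07 to 3.11). The proteinase gene *Prtn3* (32 UMIs in Control and 44 in Loaded) had +0.77 (0.08 to 1.47). Of 5 further specific and gelatinase granule genes tested, 2 were at least 2-fold higher (median +0.90), *Pglyrp1* (+2.80, 1.70 to 4.10) and *Hp* (+1.90, 0.36 to 3.71), whereas *Mmp9*, which osteoclasts also express, had +0.90 (0.73 to 1.08). The further NADPH oxidase genes had a median of +0.43, with *Ncf4* (+1.50, 0.80 to 2.24) as the 1 of 3 that was at least 2-fold higher. The background shares are the 10.1% and 10.5% given above.

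Some other lists also differed between the bone spots. Of all genes, 10.1% were at least 2-fold higher in Loaded and 10.5% at least 2-fold lower. All 4 megakaryocyte genes tested were at least 2-fold higher in Loaded (median +1.90, 1.87 against 5.35 per 10000 UMIs), as were all 3 proliferation genes tested (+1.20, 1.94 against 4.91) and 5 of 6 osteoblast and osteocyte genes (+2.31). The erythroblast list had a median of +0.29, with levels of 5.96 and 7.46 per 10000 UMIs and 1 of 7 genes at least 2-fold higher and 1 lower. Of the B cell genes 2 of 4 were at least 2-fold higher (+1.06), of the plasma cell genes 1 of 4 (+0.49) and of the adipocyte genes 2 of 4 (+0.83). No osteoclast gene of 7 was at least 2-fold higher and 1 was lower (-0.071), and no endothelial gene of 5 passed 2-fold (-0.011). Of the 20 muscle genes, 13 were at least 2-fold lower (-1.19). The part of these tissue differences in the member ratios was not tested beyond the following values. The median of the members was +1.78 with the muscle genes left out of the totals, and +2.64 in the 16 Control and 26 Loaded bone spots with a muscle share below 5%, which held 59 and 503 member UMIs.

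Outside the bone spots, the members were also higher in Loaded. Their median log2 ratio was +1.35, from +0.68 (*Ltf*) to +2.19 (*Ngp*), and 7 of 10 were at least 2-fold higher and 0 at least 2-fold lower, compared with 5.89% and 5.34% of 16326 genes. The 3 members below 2-fold were *Mpo* (122 against 145 UMIs, +0.76, 0.40 to 1.12), *Elane* (380 against 484, +0.86, 0.66 to 1.06) and *Ltf* (907 against 1022, +0.68, 0.55 to 0.81). The first 2 are early genes and the third is a late gene. *Cd177* (303 against 902 UMIs, +2.09, 1.90 to 2.28) and *S100a8* (604 against 1912, +2.17, 2.04 to 2.31) were close to *Ngp*. The median in other spots varied with the weighting and with the blocks included, and the cause was not tested. It was +0.69 with equal weight for every spot and +0.64 without the Control block of highest muscle share (36.2%), but +1.88 and +1.96 when each of the 2 Control blocks of lowest muscle share was left out in turn (6.33% and 8.52%).

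In enclosed spots, where muscle took 6.60% of UMIs in Control and 5.15% in Loaded, the median was +0.99 and 5 of 10 members were at least 2-fold higher, compared with 7.61% of 9511 genes. *Ngp* (65 against 358 UMIs, +1.89, 1.51 to 2.30), *S100a8* (163 against 821, +1.76, 1.52 to 2.01) and *S100a9* (77 against 355, +1.64, 1.28 to 2.01) had the highest ratios. The ratio of *Ltf* (222 against 384 UMIs) was +0.22, with an interval of -0.02 to 0.47, and that of *Mpo* (27 against 60) was +0.58 (-0.09 to 1.30). The erythroblast list was lower in Loaded enclosed spots, at 30.9 against 46.5 per 10000 UMIs, with a median of -0.57. In spots with a muscle share of at least 10%, the median of the members was +0.82 and 4 of 10 were at least 2-fold higher, compared with 5.6% of genes.

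**Figure D3:**
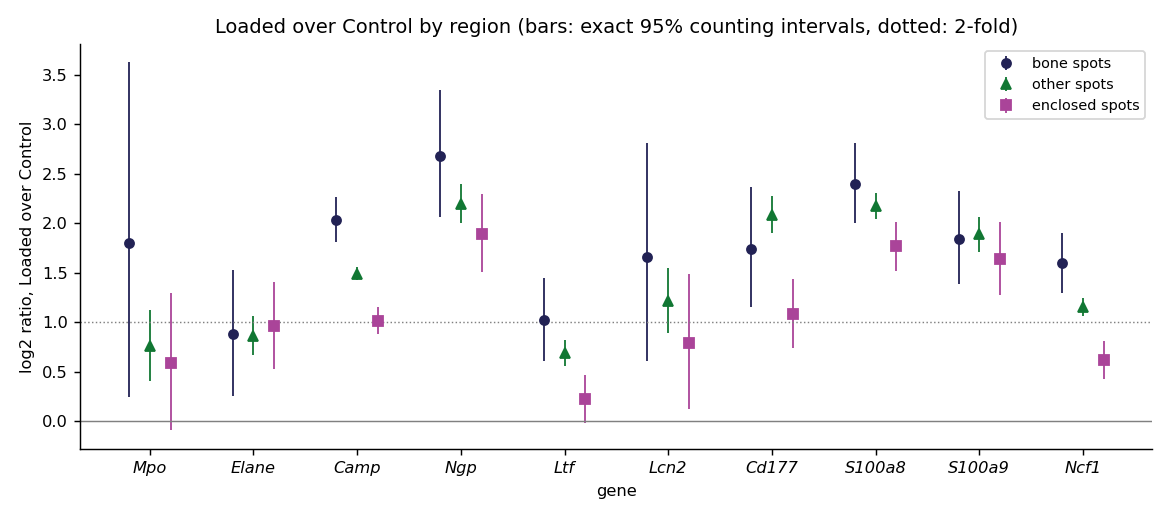
Log2 ratio of normalised counts, Loaded over Control, for each member in bone, other and enclosed spots, with exact 95% counting intervals as bars and a dotted line at 2-fold. *Camp*, *Ngp*, *Cd177*, *S100a8* and *S100a9* lie above the line in all 3 regions, *Lcn2* and *Ncf1* in bone and other spots, *Ltf* and *Mpo* in bone spots only, and *Elane* in none.

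Bone spots were also compared with other spots within each section. In Control, the median log2 ratio of bone over other spots was -0.02. No member was at least 2-fold higher and 1, *Mpo* (5 against 122 UMIs, -1.17, -2.82 to 0.09), was at least 2-fold lower, compared with 14.1% and 8.32% of genes. In Loaded the median was +0.30 and 0 members passed 2-fold in either direction, compared with 11.1% and 8.33% of genes. The bone regions were far smaller than the other spots, with summed size factors of 165 against 1782 in Control and 133 against 1250 in Loaded. Since a sum of 0 was set to 3 UMIs, genes with 0 bone UMIs and few other UMIs were called higher in bone. The shares of genes in both sections are therefore an uncertain reference. *S100a9* was the member with the highest ratio in both sections, at +0.68 (0.24 to 1.104) in Control and +0.64 (0.38 to 0.89) in Loaded. These directions are not stable, since the Control median was +0.46 with library totals and the Loaded median was -0.036 with equal weight for every spot. With library totals the Control median of all genes was +0.52. The 3 UMIs set for a sum of 0 can raise this value, by an amount that was not measured.

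Set against enclosed spots alone, the order was plain. All 10 members were at least 2-fold higher in enclosed than in bone spots of both sections, compared with 17.6% of genes in Control and 14.3% in Loaded, with medians of 2.295 in Control and 1.57 in Loaded. *Camp* had a normalised count of 7.33 in Control enclosed spots against 1.28 in bone spots, and 14.8 against 5.22 in Loaded.

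The ratio of early to late granule genes was then compared. Because it is formed within the same spots, it does not depend on the size factors. In bone spots, the 2 early genes had 42 UMIs against 360 of the 5 late genes in Control, or 11.7% (8.27 to 16.1), and 69 against 1074 in Loaded, or 6.42% (4.96 to 8.20). The log2 difference, Loaded minus Control, was -0.86 (-1.46 to -0.24). In the bone spots with a muscle share below 5%, which held 1 early UMI in Control and 9 in Loaded, it was -0.0050. Along the shaft the percentages varied within each section, and stretches with the same label are not matched sites. Within 2.5 spots of the centre of the bone region, the percentage was 1.25% (1 against 80 UMIs) in Control and 6.64% (34 against 512) in Loaded. From -7.5 to -2.5 spots it was 6.35% and 5.82%, and from 2.5 to 7.5 spots 14.8% and 10.6%. From -12 to -7.5 spots it was 22.4% (15 against 67) and 0% (0 against 13). From 7.5 to 12 spots it was 23.5% (8 against 34) and 3.68% (6 against 163). In other spots the early genes had 502 UMIs against 4245 in Control, or 11.8% (10.8 to 12.97), and 629 against 8203 in Loaded, or 7.67% (7.06 to 8.32), a difference of -0.63 (-0.81 to -0.44). In enclosed spots the percentages were 8.46% (87 against 1028 UMIs) and 7.86% (233 against 2963), and the difference of -0.11 (-0.48 to 0.28) was not detectable at this depth.

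Within a section, the ratio in bone spots could not be separated from that in other spots. The log2 difference, bone minus other, was -0.02 (-0.54 to 0.47) in Control and -0.26 (-0.65 to 0.12) in Loaded. *Elane* carried most of the early counts. With *Elane* alone the difference between sections in bone spots was -1.01, whereas with *Mpo* alone, of which there were only 5 and 14 UMIs, it was -0.091. In other spots both genes gave similar values, at -0.60 and -0.70.

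Single pairs of genes showed that the late group did not move as a block. Relative to *Camp*, *Ltf* was lower in Loaded by log2 differences of -1.01 (-1.48 to -0.53) in bone spots, -0.81 (-0.95 to -0.66) in other spots and -0.79 (-1.07 to -0.51) in enclosed spots. *Ngp* relative to *Camp* was +0.65 (-0.02 to 1.35) in bone, +0.70 (0.50 to 0.92) in other and +0.88 (0.47 to 1.31) in enclosed spots. *Ngp* relative to *Ltf* differed by +1.65 (0.89 to 2.44), +1.51 (1.27 to 1.75) and +1.67 (1.21 to 2.14), so that *Ngp* had 26 UMIs per 80 of *Ltf* in Control bone spots and 134 per 131 in Loaded bone spots. *Elane* relative to *Ltf* differed by only -0.14 (-0.90 to 0.63) in bone and +0.18 (-0.06 to 0.41) in other spots, but by +0.74 (0.24 to 1.25) in enclosed spots. *Ltf* thus had a ratio between sections nearer to the early gene *Elane* than to the late genes *Ngp* and *Camp* in bone and other spots. *Ncf1* relative to *Camp* was -0.44 (-0.82 to -0.05), -0.34 (-0.45 to -0.22) and -0.40 (-0.63 to -0.16) in the same order of regions.

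Distance from bone was also examined. It was taken to the nearest bone spot on any side, so spots near bone include enclosed spots as well as spots that are not enclosed. Enclosed spots had 53.6 member UMIs per 10000 in Control and 119 in Loaded, and spots neither bone nor enclosed had 6.93 and 22.2. The part of the enclosed spots in the values by distance was not tested. In Control the members took 11.6 per 10000 UMIs in bone spots, 14.5 (13.5 to 15.6) in the first ring of spots around them, 13.7 (12.7 to 14.8) in the next ring, 11.9 at more than 2 and up to 5 spots, 6.06 at 5 to 10 spots and 7.58 farther away. In Loaded these values were 46.0, 65.5 (63.2 to 67.8), 46.1, 41.7, 16.8 and 17.3. The first ring stood above the next in Loaded, whereas their intervals overlapped in Control. As shares of total UMIs, the first ring exceeded the spots beyond 10 by a log2 ratio of 0.94 (0.82 to 1.053) in Control and 1.92 (1.85 to 1.99) in Loaded. No size factors entered these ratios, and no value over all genes is given beside them. The muscle share was 15.8% and 9.57% in the first ring and 31.0% and 21.3% beyond 10 spots. The early genes made up 11.3% of the late UMIs in the first ring in Control (8.23 to 15.1) and 6.60% in Loaded (5.45 to 7.93). Beyond 10 spots the values were 14.004% (12.2 to 16.03) and 10.1% (8.58 to 11.8).

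Along the shaft, the level of the members in enclosed spots varied more in the Loaded section, from 46.1 to 227 per 10000 UMIs between stretches, than in the Control section, from 41.1 to 68.0. Within 2.5 spots of the centre of the bone region, the members took 54.8 (50.2 to 59.7) per 10000 UMIs in Control and 186 (179 to 193) in Loaded. In the neighboring stretches they took 51.6 and 51.2 in Control and 85.9 and 97.7 in Loaded. Stretches with the same label are not matched sites in the 2 sections. From 7.5 to 12 spots, only 4 Loaded spots were enclosed, and they had 227 (189 to 271), against 68.0 (60.2 to 76.5) in 22 Control spots. At the Loaded centre, early genes made up 4.97% (3.86 to 6.29) of late UMIs, against 11.1% (8.30 to 14.6) and 10.6% (8.30 to 13.3) in the neighboring stretches. In Control the centre had 6.62% (4.04 to 10.3). The erythroblast list took 26.8 per 10000 UMIs at the Loaded centre and 26.5 and 38.7 in the neighboring stretches, so it did not share the high level of the members there.

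**Figure D4:**
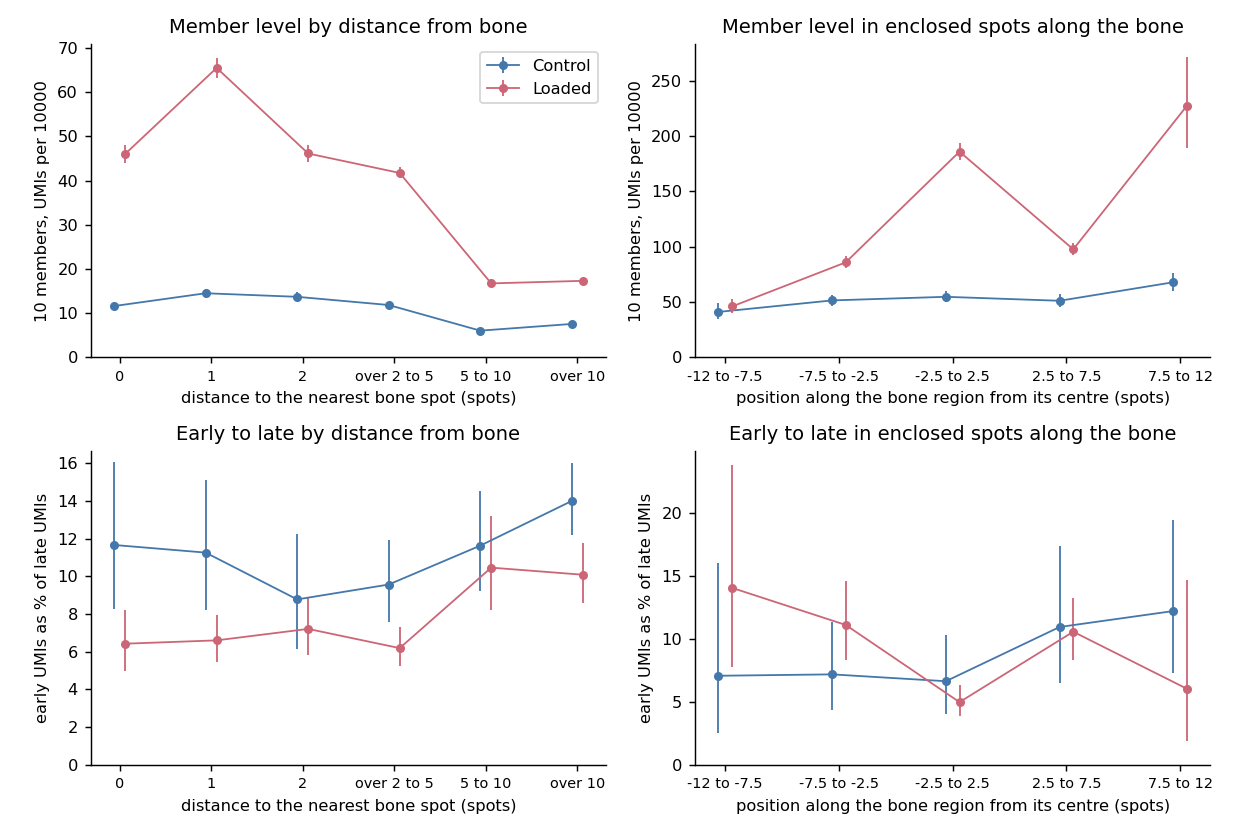
Members per 10000 UMIs (upper panels) and early UMIs as a percentage of late UMIs (lower panels) by distance to the nearest bone spot in spot units (left) and in enclosed spots along the bone region (right), for Control (blue) and Loaded (red), with exact 95% intervals as bars. The Loaded section reaches 186 per 10000 UMIs at the centre of the bone region and 227 in the stretch from 7.5 to 12, which holds 4 Loaded spots, while Control stays between 41.1 and 68.0. Positions along the bone region are not matched between the sections.

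A few Loaded spots held very high counts. The 5 spots with at least 100 late granule UMIs were all in the Loaded section, and they were examined after their values were seen. Of these, 2 were neither bone nor enclosed, a class that can include shaft marrow beyond the study's bone region. At 3.61 and 2.65 spots from the nearest bone spot, they had 426 of 4022 and 326 of 3130 UMIs from the members, or 10.6% and 10.4%. The first held 171 UMIs of *Camp*, 61 of *Ngp* and 73 of *S100a8*, but only 10 of *Ltf*, 2 of *Elane* and 0 of *Mpo*, and the second held no early UMI. The other 3 spots, with 255, 235 and 181 member UMIs, were enclosed and held 3, 7 and 5 early UMIs.

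The highest spot that was neither bone nor enclosed and the highest enclosed spot were each described with their 6 direct neighbors. Of the 5 spots, 4 fell into these clusters of 7 spots and 1, with 181 member UMIs, into neither. The non-enclosed cluster held 1001 member UMIs in 15147, with 4 early against 614 late UMIs, or 0.651% (0.177 to 1.68). It held 0 UMIs of the megakaryocyte list, which allows up to 2.44 per 10000 UMIs at the upper Poisson limit, against 4.32 per 10000 in the rest of the Loaded section, and its muscle list had 912 per 10000 UMIs. Whether these 7 spots were marrow was not tested. The enclosed cluster held 1084 member UMIs in 33437, with 39 early against 600 late UMIs, or 6.5% (4.58 to 8.99), and 48 megakaryocyte UMIs. In the remaining 1417 Loaded spots, early genes made up 8.12% (7.49 to 8.80) of late UMIs, and in the Control section 11.8%. Both clusters were built around spots with high late UMIs, the denominator of their early percentages. Without the 5 spots, the median of the members in other spots was +1.22 and the early to late difference was -0.51. Because these spots were selected by their late UMIs and all lie in Loaded, the direction of both changes follows from the selection. The bone-spot values do not involve these spots.

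**Figure D5:**
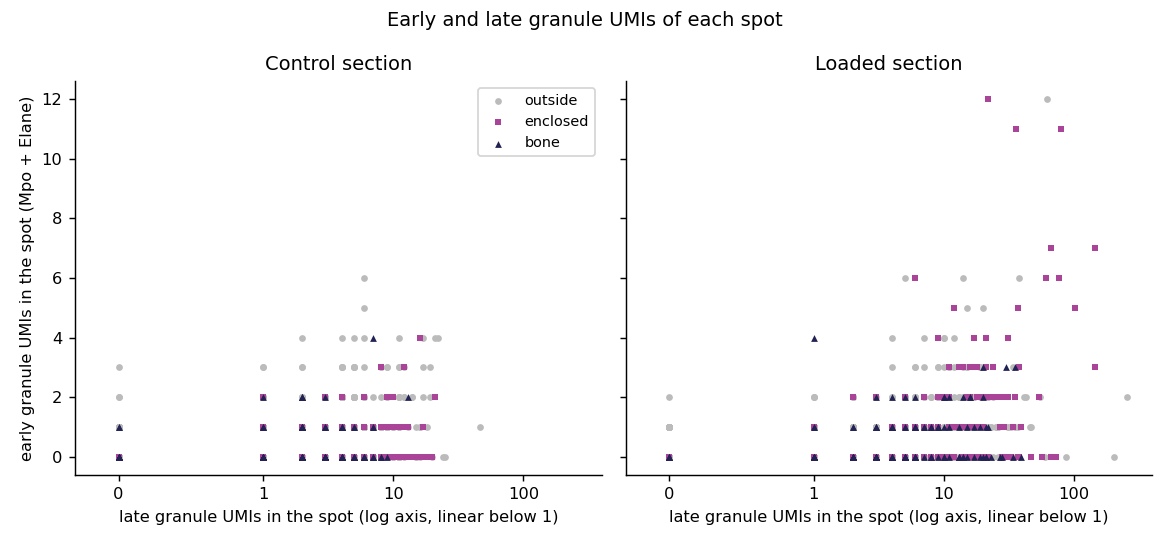
Early granule UMIs (*Mpo* plus *Elane*) against late granule UMIs (logarithmic axis, linear below 1) of every spot, for the Control and Loaded sections, with outside spots as circles, enclosed spots as squares and bone spots as triangles. Outside spots are those that are neither bone nor enclosed. Spots with over 100 late UMIs occur in the Loaded section only, and 2 of them, among the outside spots, hold 2 and 0 early UMIs.

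Early genes were found more often in spots with more late UMIs. In spots without a late UMI, whose median depth was 5178 UMIs in Control and 3583 in Loaded, an early UMI was found in 5.78% of 744 and 7.88% of 292 spots. In spots with 6 to 10 late UMIs these shares were 42.03% (35.2 to 49.1) of 207 and 51.4% (44.5 to 58.3) of 214, and with 11 to 20 late UMIs 60.7% (47.3 to 72.9) of 61 and 59.2% (51.0 to 67.1) of 152. The shares of the 2 sections overlapped within counting error at both levels. Across spots, the levels of early and late genes had a Pearson correlation of 0.40 over 1898 Control spots and 0.45 over 1431 Loaded spots, and calprotectin and late genes 0.55 and 0.72. These values are descriptions, since spots share their section, their depth and their tissue makeup.

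The genes whose levels across spots were most like the summed members, among 4266 genes with at least 200 UMIs in each section, were *Hbb-bs* (0.84 in Control and 0.83 in Loaded), *Hba-a2* (0.83 and 0.81), *Tmsb4x* (0.77 and 0.79), *Hbb-bt* (0.77 and 0.76) and *Actb* (0.76 and 0.78). *Hbb-bs*, *Hba-a2* and *Hbb-bt* encode hemoglobin chains and are abundant in blood and marrow. The hemoglobin list had a median log2 ratio, Loaded over Control, of +0.30 in bone spots and -0.31 in enclosed spots.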

How the data were processed

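The 2 FFPE femur sections, 1 Control and 1 Loaded, were profiled with Visium. Per the labels and the methods of the study, the authors sequenced the probe libraries and mapped them with Space Ranger (2.0.0 in the file headers; build mm10 in the submitters' processing notes, which also name R 4.3.1 and Seurat). The deposited values are raw UMI counts per gene and spot, without normalization, and were checked to be whole numbers.

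Spots with at least 500 UMIs and 250 genes were kept (64 Control and 5 Loaded spots were left out). Bone spots are those of the study's barcode list. Enclosed spots have bone spots within 0.75 spot distances along the shaft on both sides. Counts were summed over regions and divided by summed scran size factors (R 4.3.3, scran 1.30.0), as the authors used scran. No test over spots was made, since each section came from 1 mouse. Ratios have exact conditional binomial intervals, sums exact Poisson intervals, shares Clopper-Pearson intervals and early to late differences exact intervals of the odds ratio, all at the 95% level and for counting error only (Python 3.11.15, numpy 2.4.6, scipy 1.17.1, pandas 2.3.3, matplotlib 3.10.9). A sum of 0 was set to 3 UMIs in medians and 2-fold shares over all genes. A comparison used the genes with 10 or more UMIs in its regions together and called those that differed by at least 2-fold. Median depth was 2289 UMIs per used Control spot and 2638 per Loaded spot.

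The 10 members were all named. From 18 other lists, the genes with the highest or lowest ratio were named, with further genes as examples, and 5 genes by likeness of their level to the summed members (the smaller Pearson correlation of the 2 sections). Members and lists were chosen with earlier results of these data known. Some genes of the lists were not analysed here, and single values of a few are not reported. The gene positions used to limit the printed sequences are from GENCODE M21 (GRCm38). The computations were tested on simulated counts. The normalization was varied (total UMIs per region, edgeR 4.0.16 TMM factors, and totals that leave out the 20 genes with most UMIs). Further alternatives weighted all spots equally, kept all spots, kept those with under 5% muscle, or used other early or late genes, other limits on genes, muscle spots, thinning and distance. Each of 4 blocks per region and each member was also left out. Chosen after the data were seen were totals without the muscle list, scran on bone spots, enclosed in place of other spots, and leaving out spots with at least 100 late UMIs.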

Additional observations from a re-analysis of the deposited data

Results flagged for a closer look

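*Camp* was the member whose bone over other ratio had opposite signs in the 2 sections with both counting intervals apart from 0. The log2 ratio was -0.21 (-0.42 to -0.0075) in Control and +0.33 (0.21 to 0.45) in Loaded. With 1 section per condition the difference was not tested, and the Control value turned to +0.27 with library totals and the Loaded value to -0.072 with equal weight for every spot.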

How the results depend on the processing

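The median of the members, Loaded over Control, stayed above 0 in bone and in other spots under every alternative run. In bone spots it was 2.64 with only spots of a muscle share below 5%, ranged from 1.46 to 2.06 with each block left out and from 1.74 to 1.80 with each member left out, and otherwise stayed within the typical counting interval of a member. In other spots it was 1.75 with library totals, 0.69 with equal weight for every spot, 1.63 with a muscle share below 5% and 0.99 with enclosed in place of other spots, and ranged from 0.64 to 1.96 with each block and from 1.22 to 1.49 with each member left out. There, 10 members were at least 2-fold higher with library totals and 4 with equal weight. Library totals moved the median of all genes to 0.14 in bone spots, 0.42 in other spots, 0.52 for bone over other spots in Control and 0.29 in Loaded, and equal weight moved it to -0.12 in other spots. The 3 UMIs set for a sum of 0 can raise the values for bone over other spots. With distance limits of 3 and 12 spots, the excess of near over far spots was 0.88 in Control and 1.55 in Loaded.

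The comparisons of bone with other spots changed direction. In Control the median was 0.46 with library totals, -0.74 with equal weight, -2.31 with a muscle share below 5% and -2.295 with enclosed spots, and ranged from -0.73 to 0.61 over blocks and from -0.067 to 0.023 over members. In Loaded it was -0.036 with equal weight, -1.58 with a muscle share below 5% and -1.57 with enclosed spots, and ranged from 0.024 to 0.62 over blocks and from 0.27 to 0.33 over members. Single members reversed in 11 cases. With a muscle share below 5% these were *Mpo* in Loaded over Control bone spots (-0.85), *S100a9* for bone over other spots in Control (-2.31) and *Camp* (-1.34), *Ngp* (-1.67), *S100a8* (-1.38), *S100a9* (-1.20) and *Ncf1* (-1.37) in Loaded. The others were *Camp* in Control with library totals (0.27) or without the muscle list (0.016), and *Camp* (-0.072) and *Ncf1* (-0.14) in Loaded with equal weight. The causes were not tested.

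The early to late difference, Loaded minus Control, was -0.091 in bone spots with *Mpo* only and -0.0050 with a muscle share below 5%, where Control held 1 early UMI, and -0.11 in enclosed in place of other spots. It ranged over blocks from -0.98 to -0.79 in bone and from -0.80 to -0.50 in other spots. Bone minus other was -1.05 in Control with *Mpo* only, and -1.78 in Control and -0.98 in Loaded with a muscle share below 5%. Over blocks it ranged from -0.20 to 0.10 and from -0.38 to -0.15. No paired analysis was possible because each condition had 1 section. The UMIs of *Mpo* and *Lcn2* in bone spots limit what can be said of them.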

Other observations

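Genes of granulopoiesis other than granule genes had mixed ratios in bone spots. Of 7 transcription factors, 2 were at least 2-fold higher in Loaded, *Spi1* (20 against 37 UMIs, +1.20, 0.38 to 2.06), which encodes PU.1, and *Gfi1* (4 against 8 UMIs, +1.31, -0.59 to 3.49). *Runx1* was at least 2-fold lower (25 against 9 UMIs, -1.16, -2.45 to -0.02), and *Cebpd* had -0.78 (-1.14 to -0.42). Of all genes, 10.1% were at least 2-fold higher and 10.5% at least 2-fold lower. With so few genes, a departure from these shares was not tested. *Cebpe*, a factor of late granule genes, had 6 and 9 UMIs (+0.90, -0.76 to 2.67), and *Cebpa* had 33 and 25 (-0.09, -0.90 to 0.70). The median of the 7 was +0.86 in bone, +0.06 in other and +0.17 in enclosed spots.

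Plasma cell genes were higher in Loaded enclosed spots, at 17.5 against 6.66 per 10000 UMIs, with a median of +0.88. Of 5 tested, 2 were at least 2-fold higher, compared with 7.61% of all genes. The list of neutrophil retention and recruitment had 122 UMIs in Control and 88 in Loaded bone spots, with a summed log2 ratio of -0.16 (-0.57 to 0.25). Of its genes, 2 had at least 10 UMIs and neither passed 2-fold, the chemokine gene *Cxcl12* (104 against 66 UMIs, -0.34, -0.81 to 0.11) and its receptor gene *Cxcr4* (16 against 19, +0.56, -0.48 to 1.62). The median of these 2 genes, +0.11, differs in sign from the summed ratio.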
